A study of Mus musculus with 16 samples.

Results

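Chromosome contacts of neural progenitor cells (NPCs) were compared with those of mouse embryonic stem (ES) cells grown in serum, at 7 loci assayed by 5C. The comparison used 4 of the 16 samples of the series, 2 NPC libraries and 2 ES serum libraries, and every forward-reverse primer pair whose primers lay in the same locus. Between 86241 and 89074 such primer pairs had counts in a library. In 5C, chromatin is cross-linked, cut with HindIII and ligated, and ligation products between chosen fragments are read through primers of opposite orientation. A read count is therefore a measure of how often 2 fragments were ligated, which depends on how close they lie in the nucleus and on the behaviour of each fragment and primer.

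The NPCs came from whole brains of postnatal day 1 mice of mixed 129SvJae and C57BL/6 background carrying a Sox2-eGFP allele. They were grown as neurospheres in medium with EGF and FGF, plated as an adherent layer at 60000 cells per cm2 and fixed with 1% formaldehyde a day later. The ES cells were V6.5, a single male line of the same mixed background, kept in serum with LIF on feeder fibroblasts, passaged on gelatin to remove the feeders and fixed with 1% formaldehyde. Cell type, culture, the Sox2-eGFP allele and origin (primary brain cells against an established line) therefore changed together and cannot be told apart. The fit also held the 2 libraries of the same ES line grown serum-free in 2i (LIF with the kinase inhibitors CHIR99021 and PD0325901). They were kept for the estimate of spread, but also entered the count filter and the scaling. Their values are given where useful. Whether both libraries of a group stem from separate cultures is not in the labels, so the p-values measure the spread between libraries, which may be technical. No RNA was measured in these files, so the identity of the cells was not checked against marker genes.

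Most contacts in mammalian chromosomes fall off steeply with distance, and above that decay lie loops and domains. Many loops join sites bound by CTCF, a zinc-finger protein at which the cohesin ring is held as it extrudes chromatin. Others join gene promoters to enhancers in a cell-type-dependent way. Of the genes the loci are named for, Sox2, Nanog, Oct4 and Klf4 encode transcription factors of pluripotent cells, and Sox2 is also used by neural progenitors. Nestin encodes an intermediate filament protein of neural progenitors, and Olig1 and Olig2 encode transcription factors of neural and oligodendrocyte progenitors. The seventh locus is a gene desert.

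The loci (mm9 coordinates) were Sox2 at chr3:34108880-35104879 (996 kb), Nanog at chr6:122189360-122921359 (732 kb), Oct4 at chr17:34430392-36526391 (2096 kb), Klf4 at chr4:54899979-55887978 (988 kb), Nestin at chr3:87285088-88369087 (1084 kb), Olig1-Olig2 at chr16:90614613-91754612 (1140 kb) and the gene desert at chr5:133308809-133500808 (192 kb). Genes within them are not named below because mm9 gene models were not used here, and no sequence of these windows is shown for the same reason. The serum libraries held 26533530 and 25791222 counts and the NPC libraries 14887963 and 14698138. Pairs within a locus made up 80.5% and 79.3% of the serum counts and 82.7% and 87.2% of the NPC counts. Pairs between loci took 17.4% and 18.9% in serum and 15.4% and 10.7% in NPCs. One Oct4 primer pair alone held 19.0% and 22.6% of that locus's serum counts and 12.8% and 10.3% of its NPC counts.

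NPC contacts were concentrated at short range. Distances are given between the left ends of 16 kb windows, and short range means fewer than 8 windows apart, up to 112 kb. At all 7 loci, both NPC libraries had a larger share of a locus's counts at short range than either serum library. At the Sox2 locus this share was 67.2% and 61.7% in the serum libraries and 79.8% and 77.9% in the NPC libraries. At Klf4 it was 74.1% and 69.2% in serum and 87.0% and 86.8% in NPCs, and at Olig1-Olig2 66.1% and 61.9% against 79.3% and 77.8%. The mean differences at these loci were 14.3, 15.2 and 14.6 percentage points, larger than the gap between libraries of a group. The gain was 9.98 points at Nanog and 8.24 at Nestin. At Oct4 it was 4.81 points, or 9.70 when the primer pair with most counts was left out. The gene desert, where nearly all counts are short-range, moved from 96.9% and 96.4% to 98.8% and 98.7%.

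The loss included the middle bands, at 8 to 15 windows (up to 240 kb) and at 16 to 31 windows (up to 496 kb). At Klf4 the first of these fell from 12.4% and 14.5% to 5.89% and 6.58%, and the second from 8.62% and 10.0% to 3.98% and 4.50%. Groups did not overlap in either band at any locus that has it. At 32 windows and over the NPC shares were lower at Sox2, Nanog, Klf4, Nestin and Olig1-Olig2, while at Oct4 the groups overlapped, with 12.2% and 11.6% in serum and 13.1% and 11.04% in NPCs. Without the primer pair with most counts both Oct4 serum libraries were at 15.04% and the NPC libraries just below, at 15.02% and 12.3%. These are descriptions without a p-value, because an exact permutation test of 2 libraries against 2 cannot go below p = 0.33. The ES 2i libraries lay between both groups at short range at Sox2, Klf4 and Olig1-Olig2. At Oct4 they lay below both, but without the primer pair with most counts they overlapped serum, with 61.7% and 58.8% against 59.9% and 58.6%. A steeper decay moved with cell type together with a smaller total count and a lower share of counts between loci in NPCs, and the part of these in the decay was not tested.

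**Figure D1:**
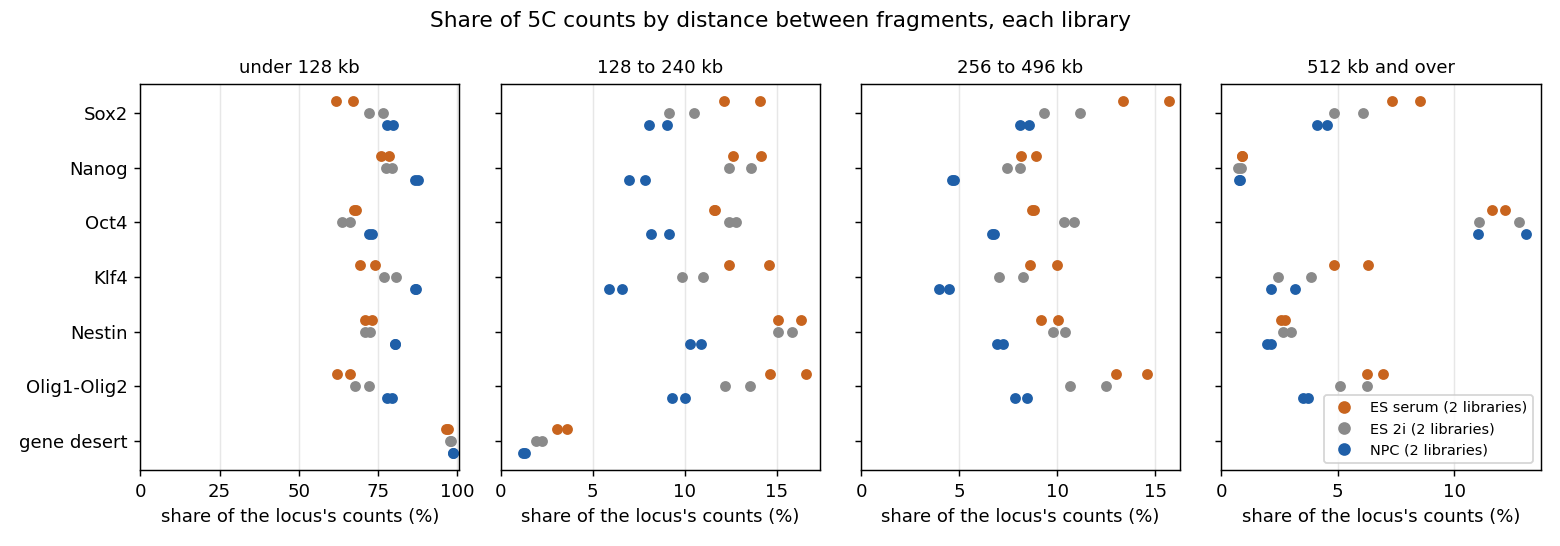
Share of each locus's within-locus 5C counts (x axes, %) that fell in 4 distance bands, by locus (y axis), with 1 point per library for ES serum, ES 2i and NPC. In the shortest band both NPC points lie to the right of both serum points at every locus, and in the next band they lie to the left.

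The loci also took different shares of the within-locus counts. The gene desert had 1.64% and 1.41% of the serum counts and 3.23% and 3.51% of the NPC counts. Oct4 went the other way, from 35.9% and 37.7% to 28.1% and 25.7%, and without its most counted primer pair the difference was -7.04 points in place of -9.91. Sox2, Olig1-Olig2, Nestin and Klf4 took larger shares in NPCs by 2.98, 3.13, 1.71 and 1.30 points, and Nanog a share that was 1.04 points smaller. All 7 shares were separated between groups. The shares add up to 100% in each library, so they do not show which locus gained or lost in absolute terms.

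To find contacts that changed beyond the shift in decay, reads were pooled by pair of 16 kb windows, and each library was set against its own distance trend within the locus. Of 15190 window pairs tested, 2188 rose and 2138 fell in NPCs (edgeR quasi-likelihood test, Benjamini-Hochberg adjusted p below 0.05), so 28.5% were called, 14.4% higher and 14.1% lower. The median size of a called rise was a log2 fold change of 1.07 and that of a called fall -0.999. The 2 NPC libraries lay on one side of the 2 serum libraries in 64.8% of the pairs tested. Because the trend centres every locus, similar numbers of rises and falls are built into the measure. Fewer pairs were called without a serum library, 2306 without replicate 1 and 2065 without replicate 2. Of pairs with a mean under 50 counts per library 8.82% were called, and of pairs with over 1000 counts 48.3%.

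A stricter scaling, chosen after seeing the data, also levelled each 16 kb window within each library, so that a window whose contacts all moved together no longer counted as changed. It called 1170 rises and 1259 falls. Of the rises under the distance trend, 747 of 2188 were also called rises after balancing, and of the falls 723 of 2138. Of the others, 297 rises and 280 falls changed sign.

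Relative to the distance trend, Olig1-Olig2 and Sox2 had the most changed pairs for their size, and Klf4 the fewest. This order was different under the other scalings, apart from Klf4: with plain TMM the gene desert (43.5%) and Nanog (40.1%) came before Sox2 (35.3%) and Olig1-Olig2 (33.4%), and after balancing Sox2 (24.2%) and Nanog (20.7%) before Olig1-Olig2 (17.7%). At Olig1-Olig2, 449 pairs rose and 400 fell of 2391 (35.5%), and at Sox2 347 rose and 321 fell of 1888 (35.4%). Nanog had 133 rises and 163 falls of 944 (31.4%), Nestin 286 and 282 of 2056 (27.6%) and Oct4 786 and 811 of 6038 (26.4%). Klf4 had 176 and 155 of 1811 (18.3%). In the gene desert 11 rose and 6 fell of 62 (27.4%), with no change beyond a log2 fold change of 1.09 up or -1.23 down. The gene desert pairs were close-range and deeply counted, with a median of 1152 counts per library against 252 over all pairs, and its share near the background is not a result about that locus.

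The direction within a locus depended on the scaling. With library-wide TMM scaling and no distance trend, Klf4 had 87 rises and 353 falls, Nanog 73 and 306, Nestin 490 and 96, Olig1-Olig2 496 and 303, and the gene desert 27 and 0. The medians of Klf4, Nanog and Nestin were then -0.32, -0.37 and 0.32 on the log2 scale. This scaling keeps the differences in locus share and decay given above, and the part of either in these medians was not tested. The Klf4 median was negative although the share of that locus was 1.30 points larger in NPCs. Sox2 (376 and 291) and Oct4 (737 and 910) moved less. By distance under the trend, 42.1% of pairs at short range and 35.3% at 8 to 15 windows were called. At 16 to 31 windows 31.4% were, and at 32 windows and over 16.8%. The median count per library fell along these bands, at 1337, 533, 250 and 91, and the part of depth in this order was not tested. Rises and falls were nearly equal in each band. Without the trend this was uneven, with 685 rises and 439 falls at short range, 390 and 592 at 8 to 15 windows, 555 and 839 at 16 to 31 windows and 656 and 389 at 32 windows and over.

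Many changed pairs touched one another. Joining called pairs of one direction that touch in the window grid, 75.1% of the Sox2 falls and 70.0% of the Sox2 rises lay in blocks of 10 or more pairs, as did 71.5% of the Olig1-Olig2 rises. At Oct4 28.4% of the falls did. In the gene desert no block exceeded 2 pairs.

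The Sox2 locus held the largest blocks. One block of 130 rising pairs joined the left end of the locus, chr3:34108880-34524879, to chr3:34444880-34668879, with a median log2 fold change of 1.01. A second, of 73 pairs, joined chr3:34540880-34652879 to the right part, chr3:34796880-35100879, with a median of 1.02. Between them lay 114 falling pairs that joined chr3:34364880-34620879 to chr3:34636880-34812879, with a median of -1.22. The raw counts of the pairs in that falling block summed to 140319 and 145464 in serum and 27798 and 30174 in NPCs. In the first rising block the sums were 127334 and 131265 in serum and 110737 and 132564 in NPCs, in libraries with fewer counts in all than those of serum. The window 432 kb from the left edge, chr3:34540880-34556879, belonged to both rising blocks, and so had more contacts with windows toward either end in NPCs.

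At Olig1-Olig2 the rises met in the middle and at the right end. A block of 97 rising pairs joined chr16:91094613-91414612 to chr16:91510613-91750612 (median 1.15), and one of 85 joined chr16:90998613-91238612 to chr16:91254613-91414612 (median 1.00). Summed counts of the second block were 110338 and 114350 in serum and 142672 and 139051 in NPCs, so both NPC libraries were higher even before any scaling. The largest falling block had 32 pairs (median -0.79) and lay to the left, between chr16:90742613-90870612 and chr16:91014613-91142612.

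At Oct4 the rising block of 105 pairs joined chr17:35646392-36062391 to chr17:35934392-36142391 (median 1.22). The falling block of 58 pairs was a stripe: all of its right ends lay in chr17:36286392-36318391, and its left ends stretched over 528 kb. Its summed counts were 162040 and 162359 in serum and 15793 and 17044 in NPCs. At Nestin 54 falling pairs lay to the left, between chr3:87445088-87701087 and chr3:87509088-87733087 (median -0.73), and 27 rising pairs to the right, between chr3:87925088-88117087 and chr3:88069088-88165087 (median 0.89). At Nanog 43 falling pairs joined chr6:122237360-122349359 to chr6:122525360-122749359 (median -1.20), and 36 rising pairs lay around chr6:122317360-122397359 (median 1.09). At Klf4 the largest block was a fall of 35 pairs between chr4:55395979-55523978 and chr4:55587979-55747978 (median -0.95).

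**Figure D2:**
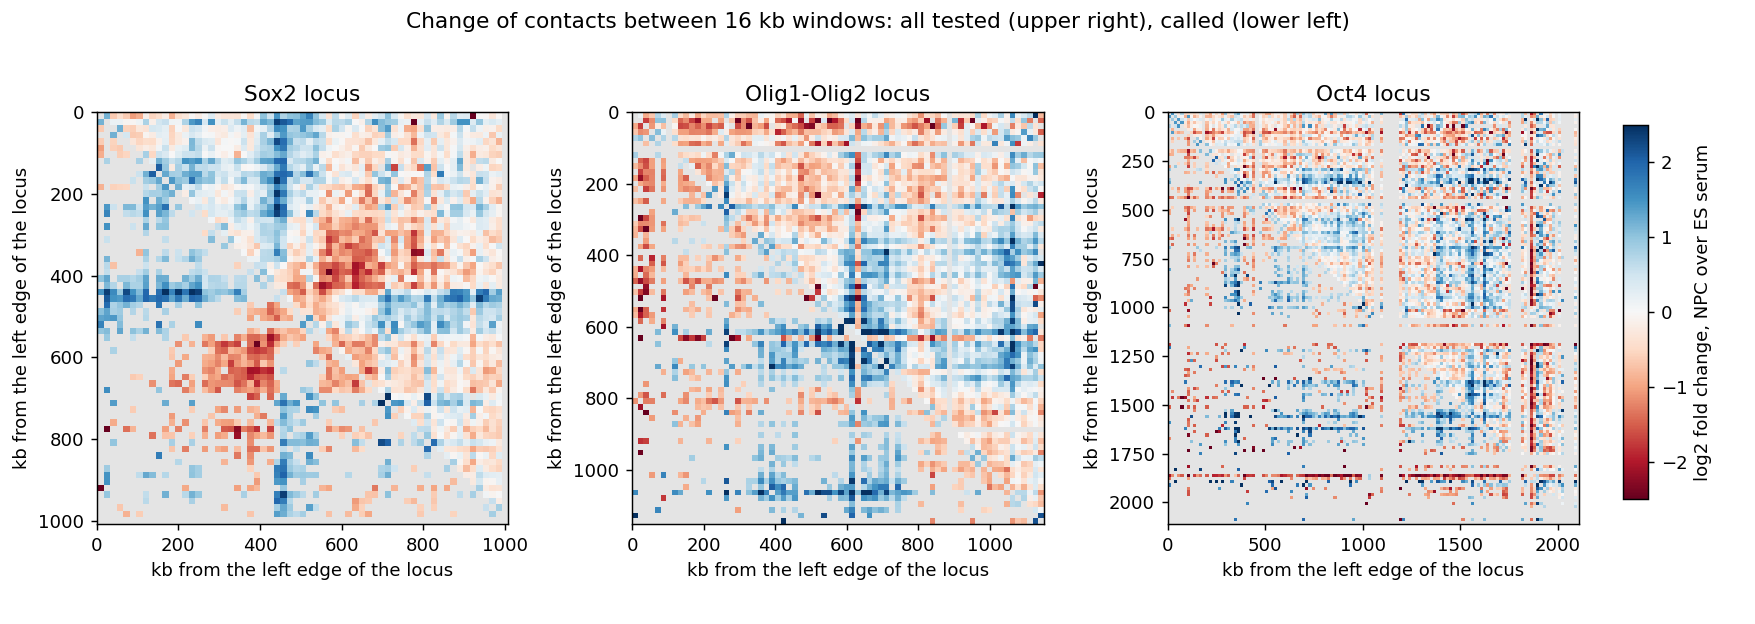
Log2 fold change (NPC over ES serum, distance trend removed) for pairs of 16 kb windows at the Sox2, Olig1-Olig2 and Oct4 loci, with position in kb from the left edge of the locus on both axes. The triangle at upper right shows all tested pairs, that at lower left the called pairs, and grey cells are untested or not called. The Sox2 map has rising stripes from about 432 kb to both ends and a falling block that reaches to 704 kb, and the Oct4 map has a falling stripe at 1856 kb.

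Some windows changed with most of their partners. The window at chr16:91222613-91238612 of Olig1-Olig2, which holds a CTCF peak found in both cell types, rose with 53 of its 69 tested partners (76.8%) and fell with none of them. After removal of the trend, the log2 level of each of its contacts was set against that contact's mean over the serum and NPC libraries. The median was -0.53 and -0.67 in the serum libraries and 0.70 and 0.50 in the NPC libraries. At Sox2, chr3:34556880-34572879 (serum CTCF peaks alone) rose with 41 of 61 partners and the neighbouring chr3:34540880-34556879 (shared peak) with 33 of 61. At Oct4, chr17:35982392-35998391 (serum peak alone) rose with 73 of 111 and chr17:36046392-36062391 (shared peak) with 65 of 109. At Nestin, chr3:88277088-88293087 (shared peaks) rose with 32 of 56, and at Klf4 chr4:55363979-55379978 (serum peaks alone) with 33 of 60. Windows with shared peaks also fell: at Nestin, chr3:87605088-87621087 fell with 34 of 65 partners and chr3:87589088-87605087 with 26 of 65. The rising windows named here held between 2 and 6 primers each, and 1 primer held up to 64.8% of the counts (chr17:36046392-36062391). Per primer, the log2 ratio of NPC to serum share of the locus's counts, without the distance trend, was not always positive. It ranged from -0.54 to 0.70 and from -0.41 to 0.51 in the Sox2 windows, and from -0.11 to 1.58 at chr3:88277088-88293087. In the other rising windows all primers were above 0.

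The strongest fall across partners was that of chr17:36286392-36302391 at Oct4, which fell with 98 of 112 partners (87.5%) and rose with 2. Against each contact's mean over the serum and NPC libraries, the median log2 level was 0.90 and 0.89 in serum and -0.92 and -0.85 in NPCs. It has no CTCF peak in either list, and 84.0% of its counts came from 1 of its 4 primers. Its primers did not all fall: their log2 ratios of locus share ranged from -1.43 to 0.75. Several other windows of this kind also leaned on 1 primer. At Oct4, chr17:34526392-34542391 fell with 65 of 112 partners, and 94.9% of its counts came from 1 primer. At Klf4, chr4:55667979-55683978 fell with 23 of 50 partners, and at Olig1-Olig2 chr16:90646613-90662612 fell with 29 of 64, and each holds a single primer. At Nestin, chr3:87765088-87781087 rose with 31 of 57 and also holds 1. At such windows a change of the region's contacts and a change in how 1 fragment or primer performed cannot be told apart. At Nanog the falling windows were neighbours, chr6:122269360-122285359 with 25 of 43 and chr6:122285360-122301359 with 24 of 43, the first with a serum peak alone and the second with none. They hold 4 and 8 primers, of which the most counted held 45.5% and 23.6% of the counts. These primers did not all fall: their log2 ratios of locus share ranged from -1.31 to 0.76 in the first window and from -1.39 to 5.45 in the second.

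**Figure D3:**
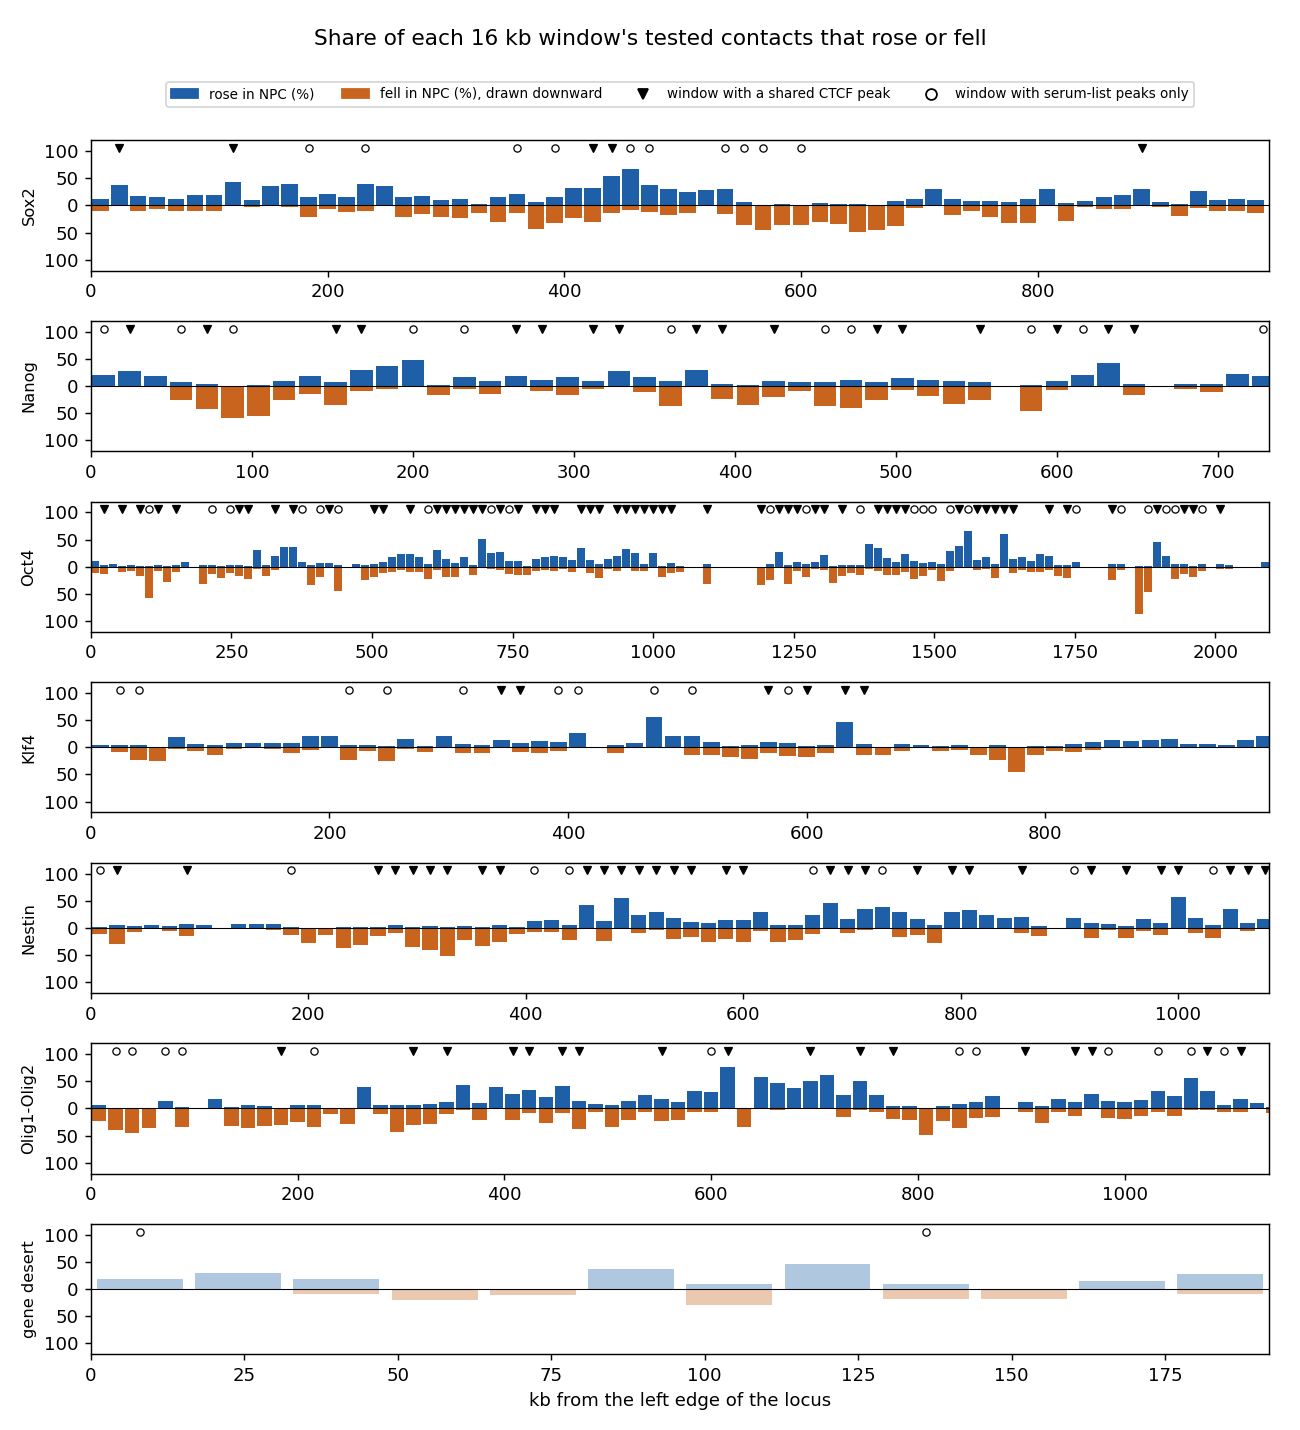
For each 16 kb window (x axis, kb from the left edge of the locus), the share of its tested contacts that rose in NPCs (bars up, %) and that fell (bars down, %), with windows holding CTCF peaks marked above. Pale bars have under 20 tested contacts. The tallest bars are the rise at 608 kb of Olig1-Olig2 (76.8%) and the fall at 1856 kb of Oct4 (87.5%).

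The largest single changes per locus, among pairs at least 3 windows apart with at least 400 counts over the 4 libraries and no primer pair above 50% of them, lay in part in these blocks and windows. Below, raw counts are given for serum replicates 1 and 2 and then NPC replicates 1 and 2, and the distance-adjusted count is the count after division by each library's trend. NPC libraries hold fewer counts, so an equal raw count is a higher relative level in NPCs.

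At Sox2 the largest rise was between chr3:34268880-34284879 and chr3:34540880-34556879, 272 kb apart, with 298 and 264 raw counts in serum and 798 and 752 in NPCs. Distance-adjusted counts were 161 and 134 in serum and 1189 and 913 in NPCs, a log2 fold change of 2.83 (SE 0.22, edgeR adjusted p = 1.05e-06). The ES 2i libraries, at 301 and 283, lay nearer to serum. The same right window also rose with chr3:34332880-34348879, from 1519 and 1483 counts to 3345 and 3622 (log2 fold change 2.49, SE 0.17). Its neighbour chr3:34556880-34572879 rose with chr3:35036880-35052879, 480 kb to the right, from 1785 and 1481 to 2769 and 3108 (2.36, SE 0.18). In all of these pairs both NPC libraries exceeded both serum libraries in raw counts despite their smaller totals.

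The largest Sox2 fall was between chr3:34492880-34508879 and chr3:34668880-34684879, 176 kb apart. Its raw counts were 1212 and 1514 in serum and 104 and 109 in NPCs, and its adjusted counts 686 and 811 against 150 and 125 (log2 fold change -2.45, SE 0.21, edgeR adjusted p = 2.54e-06). The ES 2i libraries were at 787 and 809, within the serum range. Both windows hold CTCF peaks of the serum list that no NPC peak overlaps. Contacts of chr3:34732880-34748879 with chr3:34476880-34492879 fell from 661 and 844 to 70 and 69 (-2.09, SE 0.26), and those with chr3:34524880-34540879 from 590 and 596 to 57 and 72 (-1.94, SE 0.29). After window balancing the Sox2 changes kept their calls, with log2 fold changes of 1.61, 1.39 and 1.18 for the rises and -1.35, -1.01 and -1.22 for the falls.

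At Olig1-Olig2 the most counted of the named pairs joined chr16:91222613-91238612 to chr16:91302613-91318612, 80 kb apart, both with CTCF peaks shared by the cell types. It had 2707 and 3082 raw counts in serum and 11087 and 8051 in NPCs, and 1661 and 1816 adjusted counts against 15411 and 9142 (log2 fold change 2.82, SE 0.22, edgeR adjusted p = 1.15e-06). The same left window rose with chr16:91670613-91686612, 448 kb away, from 77 and 120 to 353 and 312 (3.04, SE 0.30), the largest log2 change among the named pairs. The pair of chr16:90998613-91014612 and chr16:91318613-91334612 rose from 141 and 66 to 213 and 298 (2.57, SE 0.34). After balancing the pair at 80 kb kept its call at 0.89, while that at 448 kb was at 0.70 and lost it (edgeR adjusted p = 0.058). The 3 largest falls all started in the first 48 kb of the locus, with log2 fold changes of -2.32, -2.03 and -2.02.

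At Oct4, chr17:35982392-35998391 rose with chr17:35822392-35838391 from 474 and 508 to 1075 and 939 counts (log2 fold change 2.65, SE 0.19, edgeR adjusted p = 7.9e-07). It also rose with chr17:35118392-35134391, 864 kb away, from 63 and 82 to 253 and 197 (2.67, SE 0.30). At the shorter distance of 96 kb, chr17:35870392-35886391 and chr17:35966392-35982391 went from 897 and 1001 to 1731 and 2275 (2.60, SE 0.20), and both windows hold shared CTCF peaks. All 3 of the largest falls had their right end in the window at 1856 kb whose contacts fell with most partners. Its contacts with chr17:36030392-36046391 went from 7130 and 8761 to 484 and 343 (-2.65, SE 0.21). Balancing brought that pair to -0.50 (edgeR adjusted p = 0.042), and the other 2, at -2.28 and -2.03, lost their calls.

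At Nanog, chr6:122381360-122397359, which holds serum peaks alone, was the left end of all 3 of the largest rises. With chr6:122461360-122477359, 80 kb away, it had 452 and 431 raw counts in serum and 402 and 550 in NPCs, where the ranges overlap. Adjusted counts were 243 and 219 against 884 and 951, with no overlap (log2 fold change 1.99, SE 0.20, edgeR adjusted p = 8.84e-06). The size of this rise thus rests on the scaling, which takes in the library size, the share of the Nanog locus and its distance trend together. The falls were visible in raw counts. The whole Nanog locus also held fewer counts in NPCs, 612476 and 672459 against 1305970 and 1267144 in serum. The raw drops exceed the adjusted ones, because the scaling removes this difference and that in the distance trend together. The contact of chr6:122285360-122301359 with chr6:122637360-122653359, 352 kb apart, went from 1273 and 897 to 61 and 51 (-2.64, SE 0.28, edgeR adjusted p = 1.34e-05). That of chr6:122269360-122285359 with chr6:122317360-122333359 went from 3449 and 3812 to 254 and 358 (-1.90, SE 0.18).

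At Klf4 the largest rise joined chr4:55523979-55539978 to chr4:55731979-55747978, 208 kb apart, with 435 and 484 raw counts in serum and 470 and 570 in NPCs, where the raw ranges overlap. Adjusted counts were 225 and 234 against 905 and 838 (log2 fold change 1.92, SE 0.20, edgeR adjusted p = 1.1e-05). The largest fall joined chr4:54947979-54963978 to chr4:55139979-55155978, with 3348 and 3954 counts against 271 and 329 (-1.86, SE 0.19). At Nestin chr3:88021088-88037087 and chr3:88277088-88293087 rose from 279 and 218 to 476 and 364 (1.85, SE 0.24, edgeR adjusted p = 6.16e-05). The contact of chr3:87605088-87621087 with chr3:87909088-87925087 fell from 706 and 816 to 136 and 108 (-1.57, SE 0.23). In the gene desert the named pairs changed by 0.76, 0.74 and -0.82 on the log2 scale. These were the smallest of the named changes, and after balancing the first of them stood at -0.13 and the second at -0.05.

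**Figure D4:**
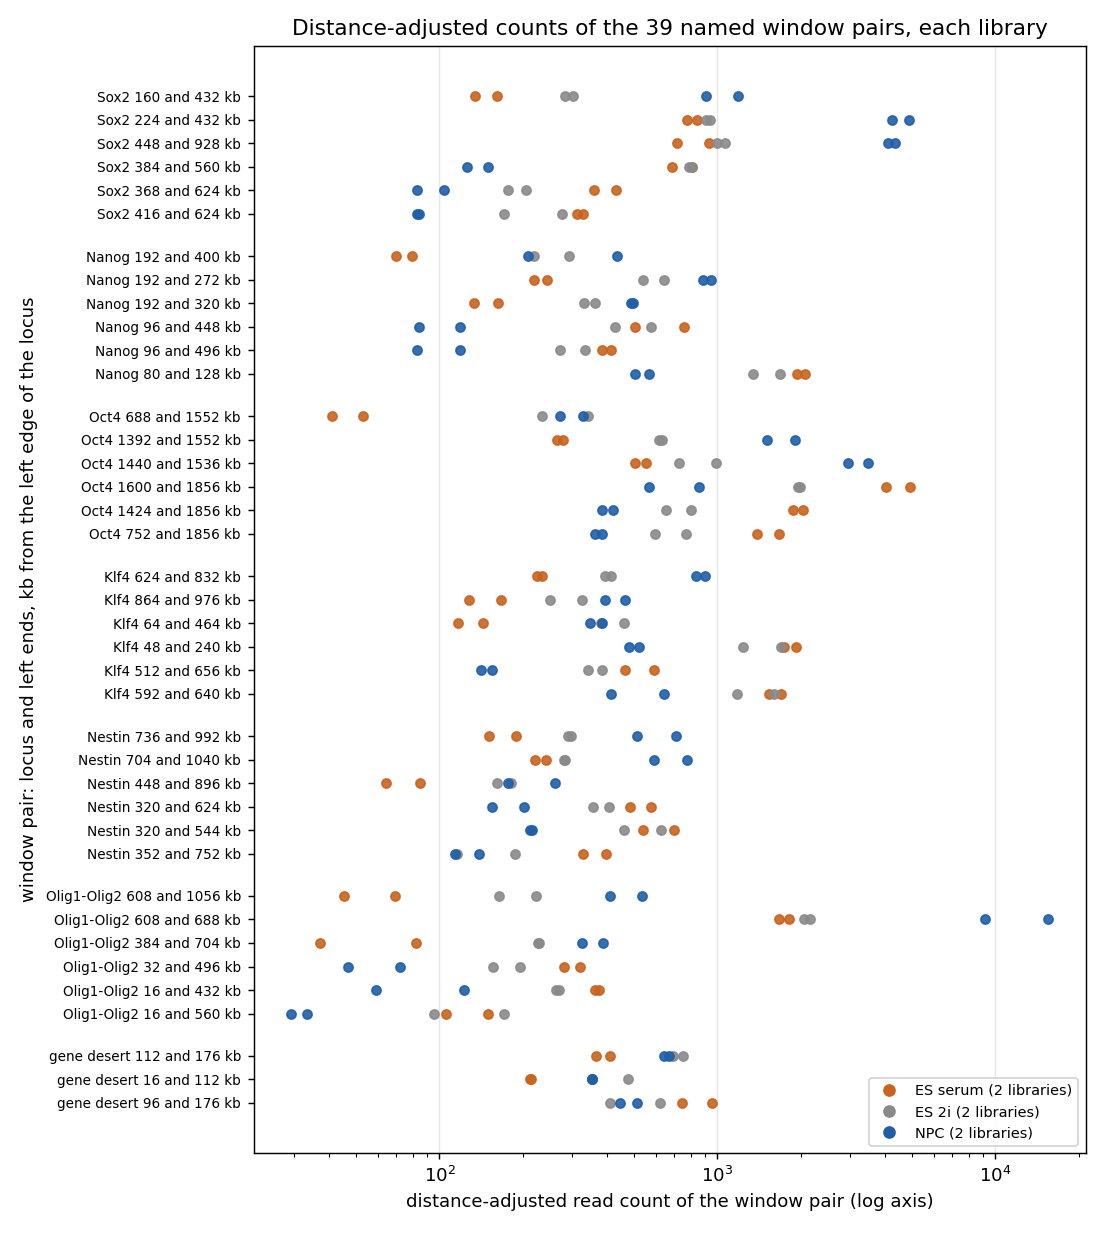
Distance-adjusted read counts (x axis, log scale) of the 39 named window pairs, up to 3 rises and then 3 falls per locus, with each pair labelled by the left ends of its windows in kb from the left edge of the locus and 1 point per library. In every pair both NPC points lie on one side of both serum points, which the choice of pairs required.

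CTCF binding differed in extent between the lists. The deposited peak lists hold 28860 CTCF peaks in NPCs and 50185 in ES serum cells, each from 1 library. Within the 7 loci there were 364 serum peaks, of which 186 were overlapped by an NPC peak, and 196 NPC peaks, of which 7 were overlapped by no serum peak. Of the 178 peaks found in serum and not in NPCs, 149 were also in the 2i list. The median fold enrichment in the authors' serum list was 28.5 for the shared peaks and 11.6 for those of serum alone, so the peaks of serum alone were the weaker ones in that list. Nestin, Olig1-Olig2 and Oct4 kept the larger shares of their serum peaks (65.2%, 55.3% and 53.7%), and Klf4 and Sox2 smaller ones (27.3% and 30.0%). Neither of the 2 serum peaks in the gene desert was shared. In these lists, loss of binding and a peak that missed the caller's threshold in the 1 NPC library cannot be told apart.

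Windows were labelled by their peaks: 147 of 454 held a shared peak, 77 held serum peaks and no shared one, 3 held NPC peaks alone and 227 had none. Pairs in which both windows held shared peaks rose more often than they fell: 483 of 2411 rose (20.0%) and 237 fell (9.83%), against 14.4% and 14.1% over all pairs. Their median log2 fold change was 0.08. Levels were also set against each pair's mean over the serum and NPC libraries. The median log2 level was then -0.05 in both serum libraries and 0.09 and 0.05 in the NPC libraries. Pairs in which both windows held serum peaks alone went the other way, with 52 of 483 rising (10.8%) and 99 falling (20.5%) and a median of -0.09. Their median level was 0.09 and 0.06 in serum and -0.02 and -0.09 in NPCs. Pairs of windows without a peak had 377 rises (10.2%) and 506 falls (13.7%) of 3681. Mixed pairs lay between, with 606 rises and 513 falls of 3900 for a shared peak facing none, 309 and 325 of 2042 for shared facing serum alone, and 343 and 445 of 2437 for serum alone facing none.

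Rises between shared sites outnumbered falls in each of the distance bands, and these counts carry no test of their difference. They were 104 against 51 of 359 pairs at short range, 104 against 65 of 388 at 8 to 15 windows, 140 against 66 of 643 at 16 to 31 windows and 135 against 55 of 1021 at 32 windows and over. Rises were also the more numerous at all 6 loci with such pairs: 52 against 13 of 136 at Olig1-Olig2, 282 against 134 of 1636 at Oct4, 111 against 77 of 478 at Nestin, 26 against 11 of 136 at Nanog, 8 against 0 of 10 at Sox2 and 4 against 2 of 15 at Klf4. The serum-alone pairs fell more often than they rose at Sox2 (16 against 5 of 45), Oct4 (47 against 20 of 247), Nanog (14 against 8 of 55) and Olig1-Olig2 (11 against 6 of 64). At Klf4 and Nestin they did not, with 8 falls and 10 rises of 45 at Klf4 and 3 of each of 26 at Nestin. At Sox2, which has few shared sites, pairs of a shared peak facing none had 79 rises and 20 falls of 230, pairs without a peak 118 and 170 of 1032, and of the 460 pairs of serum alone facing none 23.0% rose and 21.5% fell.

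After window balancing these counts changed, against a background of 7.70% rising and 8.29% falling over all pairs. Between shared sites 189 pairs then rose and 188 fell (7.84% and 7.80%), with a median of 0.01, and between serum-alone sites 39 rose and 53 fell. A shared peak facing serum alone had 142 rises and 199 falls, a wider gap than before. The order turned for a shared peak facing none, with 304 rises and 376 falls, and for pairs without a peak, with 269 and 211. By locus, serum-alone pairs had 16 falls and 6 rises at Sox2, 17 and 13 at Oct4, 10 and 4 at Olig1-Olig2 and 3 and 2 at Nestin. At Nanog they had 4 falls and 6 rises and at Klf4 3 and 8. Between shared sites rises stayed more numerous at Nanog (15 against 9) and Sox2 (5 against 1). They did not at Oct4 (109 against 115), Nestin (42 against 43), Olig1-Olig2 (14 against 16) and Klf4 (4 against 4). CTCF content is a property of windows, and balancing removes by construction what a window's contacts have in common. Per window, 74 of 136 windows with a shared peak had more rises than falls and 60 more falls than rises, against 29 and 44 of 74 windows with serum peaks alone, and 99 and 98 of 204 without a peak. Without serum replicate 2 the counts between shared sites were 248 rises and 97 falls, and without serum replicate 1 they were 287 and 108.

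**Figure D5:**
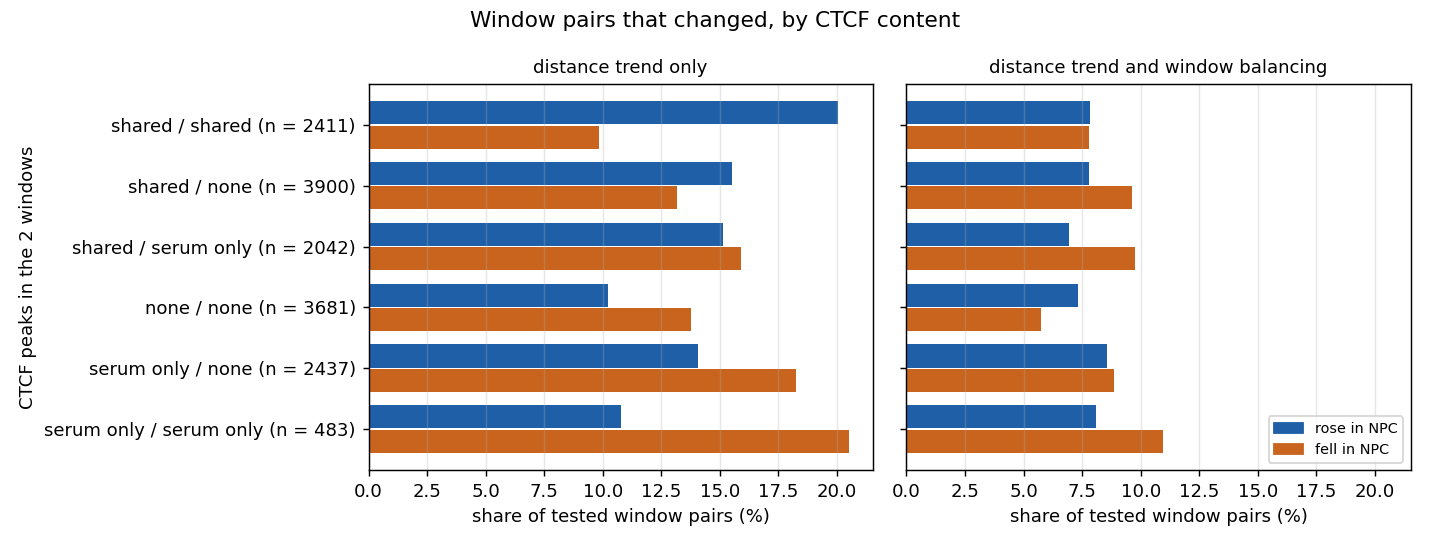
Share of tested window pairs (x axis, %) that rose or fell in NPCs, by the CTCF peaks in the 2 windows, with the distance trend alone (left) and after window balancing (right). On the left the share rising is 20.0% between shared sites and 10.8% between sites of the serum list alone, and on the right they are 7.84% and 8.07%.

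The authors sorted looping pixels into classes using these same libraries, so the direction of a class here is not independent evidence. Of 183 window pairs assigned to the class specific to NPCs, 144 rose and 2 fell, with a median log2 fold change of 1.14, beside 14.4% rising and 14.1% falling over all pairs. Most lay at Olig1-Olig2 (55 of 66 rose), Sox2 (48 of 51) and Nestin (18 of 21). The share was lower at Klf4 (6 of 10), Nanog (5 of 12) and Oct4, where 12 of 23 rose and 2 fell. Of 69 pairs in the class of loops common to both ES states, 41 fell and 2 rose (median -0.90), and of 107 specific to ES serum cells, 37 fell and 3 rose (median -0.65). The class present in NPCs and 2i had 50 rises and 8 falls of 111, and the class constant in all states had 67 and 38 of 272. Background pixels had 69 rises and 99 falls of 540. Of the 15190 pairs tested 13775 had no class, among them 1836 of the 2188 rising and 1883 of the 2138 falling pairs.

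The class specific to NPCs kept its direction after balancing, with 85 rises and 0 falls and a median of 0.51, beside 7.70% and 8.29% over all pairs. So did the class of both ES states, with 29 falls and 2 rises. The class specific to ES serum cells had 18 falls and 9 rises. The class of NPCs and 2i had 13 rises and 18 falls after balancing.

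The authors' deposited interaction scores gave a second scaling of the same reads. In the files the score equals -10 times the log2 of the deposited p-value, with a largest difference of 0.062, so a high score marks a contact above the authors' expectation. Of 2086 rising pairs with a score, 1704 (81.7%) had a higher mean score in NPCs than in serum, and of 1960 falling pairs 349 (17.8%) did. Among pairs not called it was 48.1%. By CTCF content it was 53.2% of 2046 pairs between shared sites, 52.1% of 382 between serum-alone sites and 44.7% of 3221 without a peak, so by score the serum-alone pairs were not mostly lower in NPCs. Mean scores of rising pairs were 10.7 in both serum libraries and 21.4 and 20.2 in the NPC libraries, and those of falling pairs 18.6 in both serum libraries against 9.95 and 10.2. For the Olig1-Olig2 contact at 80 kb the scores were 23.2 and 22.2 in serum and 88.9 and 74.0 in NPCs. For the Sox2 contact at 272 kb they were 0.72 and 0.26 against 34.3 and 30.6. The largest Oct4 fall, by contrast, had low scores in all 4 libraries, between 0.07 and 3.91.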

How the data were processed

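Members and lists were chosen with earlier results of these data known. The deposited 5C files give raw read counts per primer pair, made by the authors with Bowtie on mm9 per the submitters' processing notes (versions and read filters: not given in the sources used here). The labels say that these libraries reuse reads already deposited under earlier samples. Same-orientation pairs, pairs between loci and primers outside the authors' bins were left out. Counts were summed over pairs of different 16 kb windows and tested with edgeR 4.0.16 (quasi-likelihood, filterByExpr, R 4.3.3). In each library and locus, log(count + 0.5) was smoothed against distance by loess (span 0.5), and the fitted trend served as offset, with TMM factors on top. All 6 untreated libraries shared 1 fit with group as the term. The common biological coefficient of variation was 0.201, and the threshold was a Benjamini-Hochberg adjusted p below 0.05. Window balancing added 1 least-squares effect per window and library to the trend.

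Named pairs were, per locus, called pairs at least 3 windows apart with separated libraries, at least 400 counts over the 4 libraries and no primer pair above 50% of them. The 3 largest rises and falls were taken, skipping a pair whose windows both lay within 2 windows of one already taken. The 2 largest blocks, and the 2 windows with the largest share rising or falling among those with at least 20 tested pairs, were described, and only part of them is printed.

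The authors called CTCF peaks with MACS2, per the submitters' processing notes. Per peak, the deposited lists hold a ratio (fold enrichment) and a −log10 q, used here to describe or filter peaks of a list. A serum peak was shared where an NPC peak overlapped it by at least 1 bp, and a window took the label of the peaks whose midpoints it holds. The deposited scores and p-values, per 4 kb bin pair, are the authors' values. A window pair took the authors' looping class with most pixels, and 20 ties were left out. A further 29 per-sample columns were not used.

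The fit was tested on simulated data: among 15021 pairs it found 33 of 100 altered by 1 on the log2 scale and 100 of 100 altered by 2, with 2.92% false calls. Chi-square over degrees of freedom between libraries was 19.1 for NPC and 18.7 for serum, so none was a duplicate. Alternatives covered scaling, filters, window size, tool (DESeq2 1.42.0), CTCF overlap and leaving out libraries. Python 3.11.15, numpy 2.4.6, pandas 2.3.3 and matplotlib 3.10.9 were used.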

Additional observations from a re-analysis of the deposited data

How the results depend on the processing

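The number of changed window pairs (4326, with 2188 rises and 2138 falls) followed the window size and the depth. With 8 kb windows 8417 changed (4216 rises, 4201 falls), with 32 kb windows 1684 (827 and 857) and over single primer pairs 10254 (5350 and 4904). The number of pairs tested also changes with the window size, so these counts do not show whether the share called changed. Window balancing, added after seeing the data, gave 2429 (1170 and 1259). Leaving out 1 library in turn gave 2065 to 3598 changed pairs, 1082 to 1849 rises and 983 to 1749 falls, the lowest without a serum library. The remaining group of 1 is then assumed to vary like the others. All other settings (plain TMM, 1 distance trend, DESeq2 or its size factors, other filters, a narrower loess, the 4 libraries alone) stayed within 1.5 times.

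The replicate numbers did not pair libraries, as same-numbered libraries' deviations correlated at 0.028, 0.086 and 0.023. A replicate block gave 2440 rises and 2508 falls.

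Between shared CTCF sites (483 rises, 237 falls), a stricter overlap (50% of the serum peak) gave 259 and 104 of 1306 pairs (19.8% and 7.96%, before 20.0% and 9.83% of 2411), and window balancing 189 rises. Between serum-only sites (52 rises, 99 falls) the stricter overlap gave 167 and 208 of 1180 (14.2% and 17.6%, before 10.8% and 20.5% of 483), and balancing 53 falls. Leaving out 1 library gave 248 to 412 rises and 97 to 188 falls between shared sites, and 34 to 52 rises and 46 to 84 falls between serum-only sites. Without the primer pair with most counts per locus, the short-range share of Oct4 gained 9.70 points, and the differences in locus share were 2.35 points for Sox2, -1.41 for Nanog, -7.04 for Oct4, 1.10 for Nestin and 2.37 for Olig1-Olig2. The cause of these shifts was not tested.

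Of the 39 named pairs, 36 kept their call in all of the 14 planned settings at 16 kb, and the other 3 were the gene desert pairs. With balancing 28 kept it, 9 kept the direction without the call, and 2 gene desert pairs changed sign (-0.125 and -0.0496).

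Calls were fewer at low depth, with 8.82% of pairs under a mean of 50 counts per library called. In the simulation a change of 1 on the log2 scale was recovered for 33 of 100 pairs. Far fewer pairs were altered there than were called in the data, which makes the adjusted threshold stricter. The recovery in the data is therefore not known, and an uncalled pair is not shown to be unchanged.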
